A study of Homo sapiens with 6 samples.

Results

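Kinesins are the microtubule motor proteins of the KIF family, and their mRNA levels were examined in MDA-MB-231 cells, a triple-negative human breast cancer line with mesenchymal features. The genes were chosen by symbol alone: KIF followed by a number and at most 1 letter, plus KIFC1, KIFC2 and KIFC3. Of 43 such symbols listed, 41 genes were measured among 18132 genes on the array, and they were read by 101 of 49293 probe sets. KIF4B and KIF28P had no probe set annotated to them alone. Total RNA came from cells carrying a negative control lentivirus (NC, 3 arrays) or a lentivirus for CTCF overexpression (CTCF-OE, 3 arrays). CTCF is a zinc-finger protein that binds DNA and shapes chromatin loops. All cells were stably infected cells of this single line, and each sample was hybridised to a PrimeView expression array. The study speaks in general of independent experiments, but for the arrays of a group separate cultures are not stated, and the p-values therefore describe spread among arrays that can be partly technical.

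Kinesins couple ATP hydrolysis to movement along microtubules or to the shortening of microtubule ends. A large set works in mitosis, where these motors separate spindle poles, align chromosomes and complete cytokinesis, and its mRNAs peak late in the cell cycle. Transport kinesins instead carry vesicles, mitochondria and ciliary cargo and are used outside mitosis, most prominently in neurons. The measured genes were divided into 14 mitotic kinesins, 17 transport kinesins and 10 others, which include ciliary, Hedgehog-related and atypical motors.

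The labels were first checked at CTCF itself. The intensity of its probe set, a brightness on a linear scale, was 463, 442 and 489 in NC and 399, 388 and 399 under the CTCF-OE label. All 3 arrays labelled CTCF-OE were below all NC arrays, with a log2 difference of -0.23 (SE 0.045, n = 3 per group, limma adjusted p = 0.0575, two-sided exact permutation p = 0.1, the smallest this design allows). The signal of this probe set, the only 1 annotated to CTCF alone, was thus in no array above NC, against the label. By the maker's naming, a probe set of its type may read transcripts of more than 1 gene. Every direction below refers to the arrays labelled CTCF-OE. The study examined CTCF protein in these cells by Western blotting, which was not analysed here. Whether this probe set can read the lentiviral transcript is not given in the sources used here. The median intensity of the arrays was 83.3 to 84.5, and the dimmest 20% of probe sets lay under 15.9 to 16.5. Of 6 ribosomal RNA control probe sets, 5 were lower in all arrays labelled CTCF-OE, with log2 differences of the 6 from -0.38 to -0.03, and their part in the kinesin results was not tested. VIM, CD44, AXL and CAV1, which mark this line, were bright (4613 to 14018 in NC), and EGFR and PLAUR, listed with them, fell (log2 differences -0.38 and -0.29, limma adjusted p 0.0182 and 0.0288). Of 6 genes listed as low or absent in this line, CDH1 and PGR were among the dimmest 20% of probe sets (13.8 and 8.31), FOXA1 and ESR1 were at 18.0 and 55.8, and EPCAM and GATA3 were at 458 and 346. The 7 markers of blood, endothelium, fibroblasts and hepatocytes were at 7.23 to 113 in NC, with PTPRC, DCN and ALB among the dimmest 20%, and the groups overlapped in all 7. In bulk RNA, fewer cells that express a gene and less RNA per cell cannot be told apart.

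Promoters were examined because many mitotic genes share a cell cycle homology region near the start site, the element read by the DREAM and MuvB complexes. RefSeq promoters (GRCh38.p14) were available for 33 of the 41 kinesin genes. The stretches of KIF14, KIF20A, KIFC1 and KIF11, mitotic genes described below, and of the transport gene KIF5B are shown from base -150 to base 29, where base 0 is the first transcribed base. Capitals mark matches to 2 motifs. The first, for the cell cycle homology region, is the exact string TTTGAA and appears as its reverse complement where it lies on the other strand. The CCAAT box, the element of NF-Y, is named for its letters and appears as ATTGG where it lies on the other strand. The stretches lie at chr1:200620722-200620901 (minus strand), chr5:138178962-138179141 (plus strand), chr6:33391673-33391852 (plus strand), chr10:92592980-92593159 (plus strand) and chr10:32056396-32056575 (minus strand), each printed 5′ to 3′ along the gene.
KIF14: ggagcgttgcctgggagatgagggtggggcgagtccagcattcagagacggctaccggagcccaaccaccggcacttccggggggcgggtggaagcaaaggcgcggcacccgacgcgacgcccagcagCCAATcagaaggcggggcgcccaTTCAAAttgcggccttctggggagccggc
KIF20A: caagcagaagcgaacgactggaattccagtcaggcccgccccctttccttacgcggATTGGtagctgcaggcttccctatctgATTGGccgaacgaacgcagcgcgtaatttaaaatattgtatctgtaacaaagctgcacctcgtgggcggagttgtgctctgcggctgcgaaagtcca
KIFC1: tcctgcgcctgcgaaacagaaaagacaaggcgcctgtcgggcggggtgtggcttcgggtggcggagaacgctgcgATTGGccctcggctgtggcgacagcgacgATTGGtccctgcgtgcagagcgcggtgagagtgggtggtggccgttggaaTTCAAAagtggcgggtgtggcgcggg
KIF11: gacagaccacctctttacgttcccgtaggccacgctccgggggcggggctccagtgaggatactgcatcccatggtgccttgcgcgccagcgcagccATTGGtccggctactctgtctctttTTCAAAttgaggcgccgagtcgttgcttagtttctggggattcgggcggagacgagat
KIF5B: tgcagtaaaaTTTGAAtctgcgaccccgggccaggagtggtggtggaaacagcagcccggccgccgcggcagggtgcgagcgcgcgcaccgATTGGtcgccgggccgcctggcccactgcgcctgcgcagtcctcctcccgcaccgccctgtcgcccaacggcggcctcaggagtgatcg

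In KIF14, KIFC1 and KIF11 the TTTGAA match lay downstream of a CCAAT box, with its first base at 1, 4 and -28. KIF20A held 2 CCAAT boxes, at -94 and -67, and no TTTGAA in the window. The promoter of KIF2C, a mitotic gene also described below, is not shown and held neither motif, as did those of KIF2A and KIF2B. KIF27 was among the kinesins without an available promoter. In KIF5B the only TTTGAA match among the transport promoters lay at -140, upstream of the CCAAT box. Over the whole windows of 250 bases before to 50 bases from the start, both strands searched, TTTGAA was found in 9 of 15 promoters of mitotic kinesins (60.0%), 1 of 17 of transport kinesins (5.88%) and 0 of 10 of the others. The shares were 15.2% of all 35116 promoters in the table and 12.4% of the 20402 promoters of measured genes. CCAAT was found in 10 of 15 (66.7%), 5 of 17 (29.4%) and 4 of 10 (40.0%), against 34.6% of all promoters. Both motifs stood in 8 of 15 mitotic promoters (53.3%), against 5.01% of promoters of measured genes, and the motifs never overlapped each other. All TTTGAA matches of mitotic kinesins began between -55 and 30. The median GC content was 62.3% in the mitotic and 71.3% in the transport promoters. These matches are letters in a sequence and not measured sites, and other spellings of either motif were not searched.

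**Figure D1:**
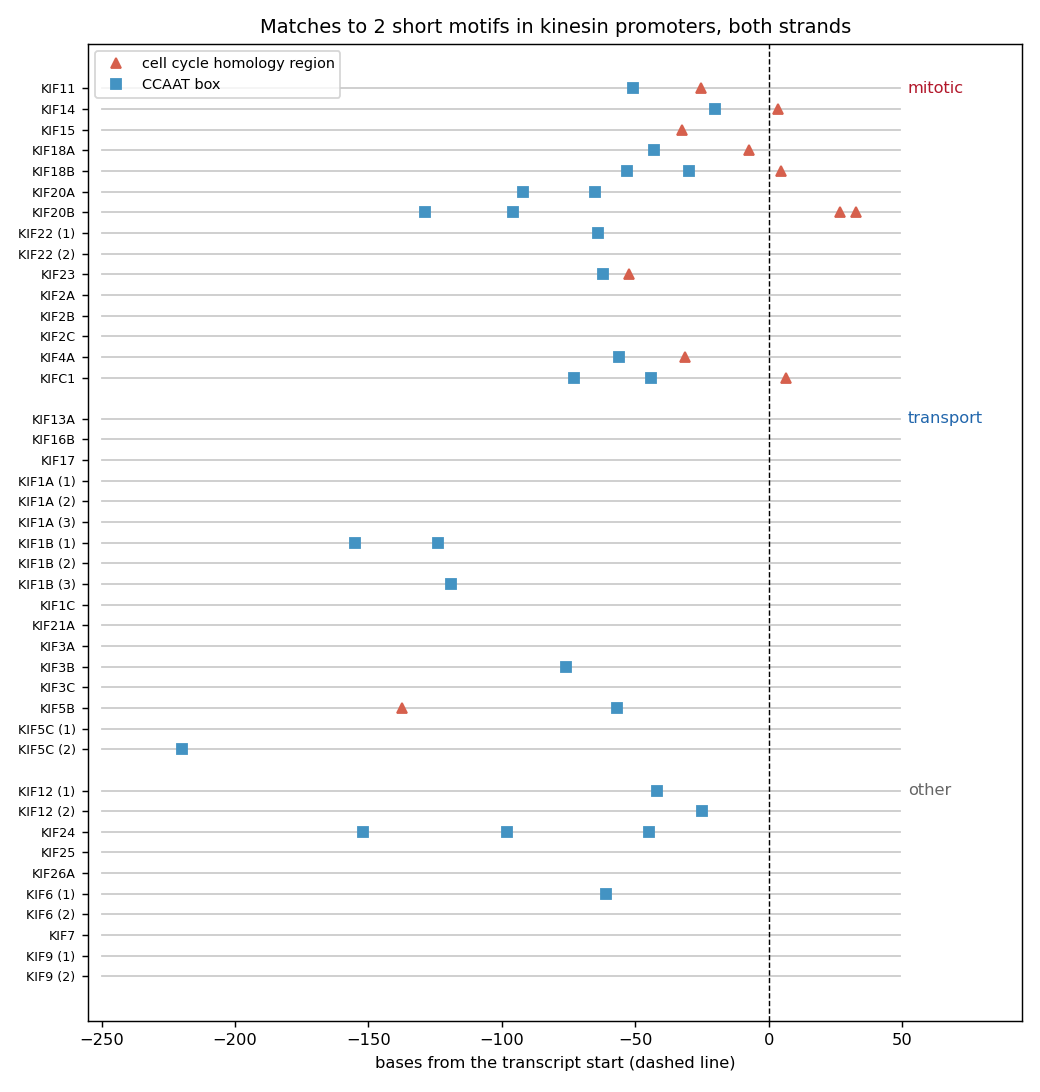
Matches to the cell cycle homology region and the CCAAT box in the kinesin promoters, 1 line per promoter, with or without a match. The x axis gives the distance from the first transcribed base in bases. The TTTGAA matches of the mitotic kinesins lie between -55 and 30, and the match of KIF5B lies at -140.

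At the level of genes, 1 kinesin rose and 1 fell in the arrays labelled CTCF-OE: KIF20A (1.15-fold) and KIF27 (1.40-fold). Each gene was read by its brightest probe set, differences were taken on the log2(intensity + 1) scale, and calls needed a limma adjusted p under 0.05 over all genes. The count of 1 of 41 higher stands beside 0.734% of all genes called higher, and 1 of 41 lower beside 1.4% called lower. With the fold threshold of 1.3 added, KIF27 was the kinesin left, beside 0.0772% of all genes called higher and 0.469% called lower. Between the groups, 33 of the 41 kinesins differed by less than 10%, beside 15500 of all 18132 genes. Without adjustment, 6 kinesins were higher and 5 lower at p under 0.05, beside 7.93% and 9.29% of all genes. The groups did not overlap in 12 kinesins higher and 5 lower, beside 11.4% and 13.3% of all genes. The median log2 difference was 0.03 over the kinesins and 0.00 over all genes.

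**Figure D2:**
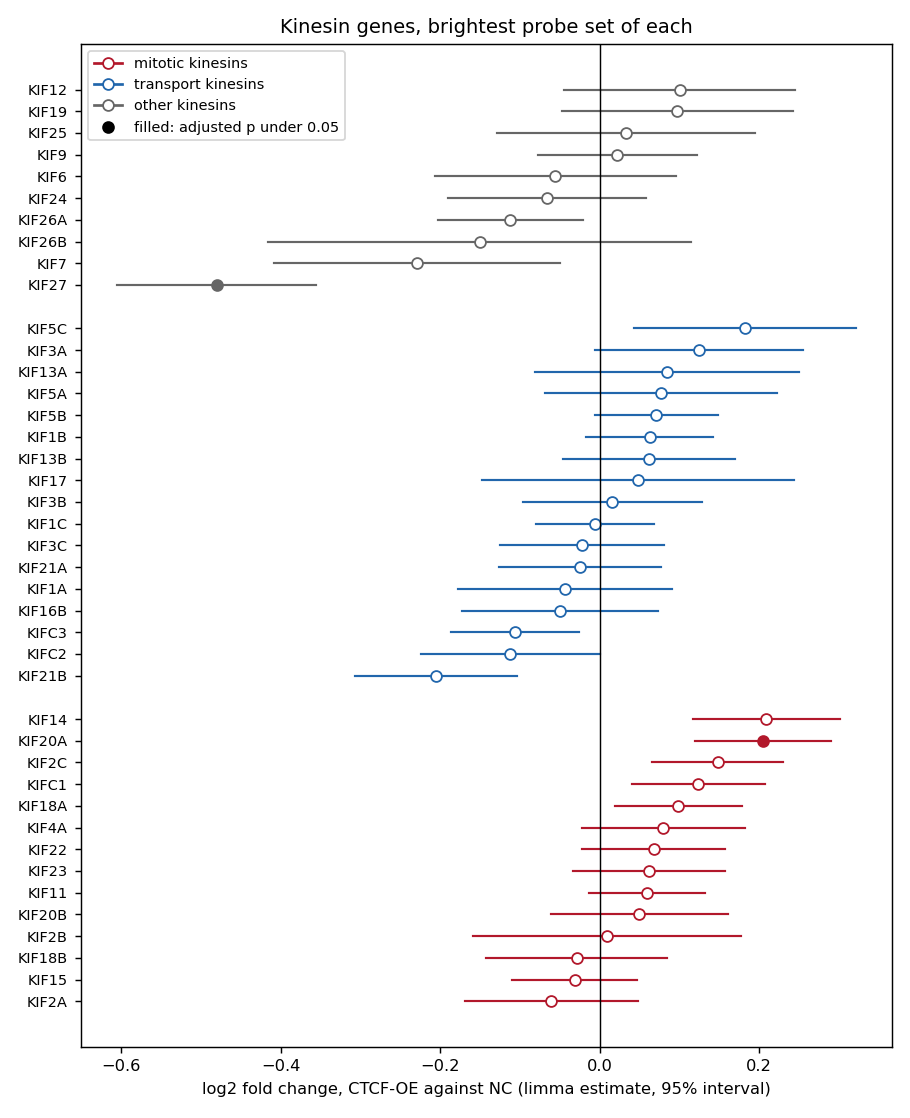
Log2 difference of each of the 41 kinesin genes, arrays labelled CTCF-OE minus NC, with its 95% confidence interval from limma (n = 3 per group), ordered within the mitotic, transport and other classes. KIF20A at 0.21 and KIF27 at -0.48 are the genes past the threshold.

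Among the mitotic kinesins, KIF20A rose. KIF20A (MKLP2) moves the chromosomal passenger complex to the central spindle for cytokinesis, and its gene lies at chr5:138179112-138187723 in GRCh38.p14. Its intensity was 830, 842 and 879 in NC and 987, 972 and 982 under the CTCF-OE label. Every array labelled CTCF-OE was above every NC array, and the means were 850 ± 25.1 and 980 ± 7.26 (SD, n = 3). The log2 difference was 0.21 (SE 0.036, 95% interval 0.12 to 0.29, limma adjusted p = 0.0433). The call was lost when any of the 6 arrays was left out (differences 0.19 to 0.23, limma adjusted p 0.0544 to 0.164), and the adjusted p of this probe set over all probe sets was 0.0506. The exact permutation p was 0.1 for KIF20A, KIF14 and KIF27, the smallest possible with 3 arrays against 3.

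KIF14, which works with PRC1 and citron kinase in the late steps of cytokinesis, was read by 2 probe sets. Its gene lies at chr1:200551497-200620751. The brighter probe set gave 502, 475 and 511 in NC and 576, 570 and 573 under the CTCF-OE label, a log2 difference of 0.21 (SE 0.039, limma adjusted p = 0.0502). These values did not overlap but stood just outside the threshold. The dimmer probe set gave 278, 270 and 271 in NC and 371, 356 and 374 under the CTCF-OE label. Again the groups were apart, and this probe set rose by 0.42 on the log2 scale (SE 0.039, 1.34-fold, limma adjusted p = 0.00598 over all probe sets). KIF14 was thus the kinesin with a probe set called higher at that level, beside 0.803% of all probe sets called higher and 1.27% called lower. With the fold threshold these shares were 0.191% and 0.446%. This probe set stayed past the threshold when each array was left out in turn (limma adjusted p 0.0304 to 0.0442), and lost its call with the replicate number as a block (limma adjusted p = 0.0560). KIF14 and KIF27 also stand in the study's own list of changed genes, which was made from these arrays and is no independent evidence.

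**Figure D3:**
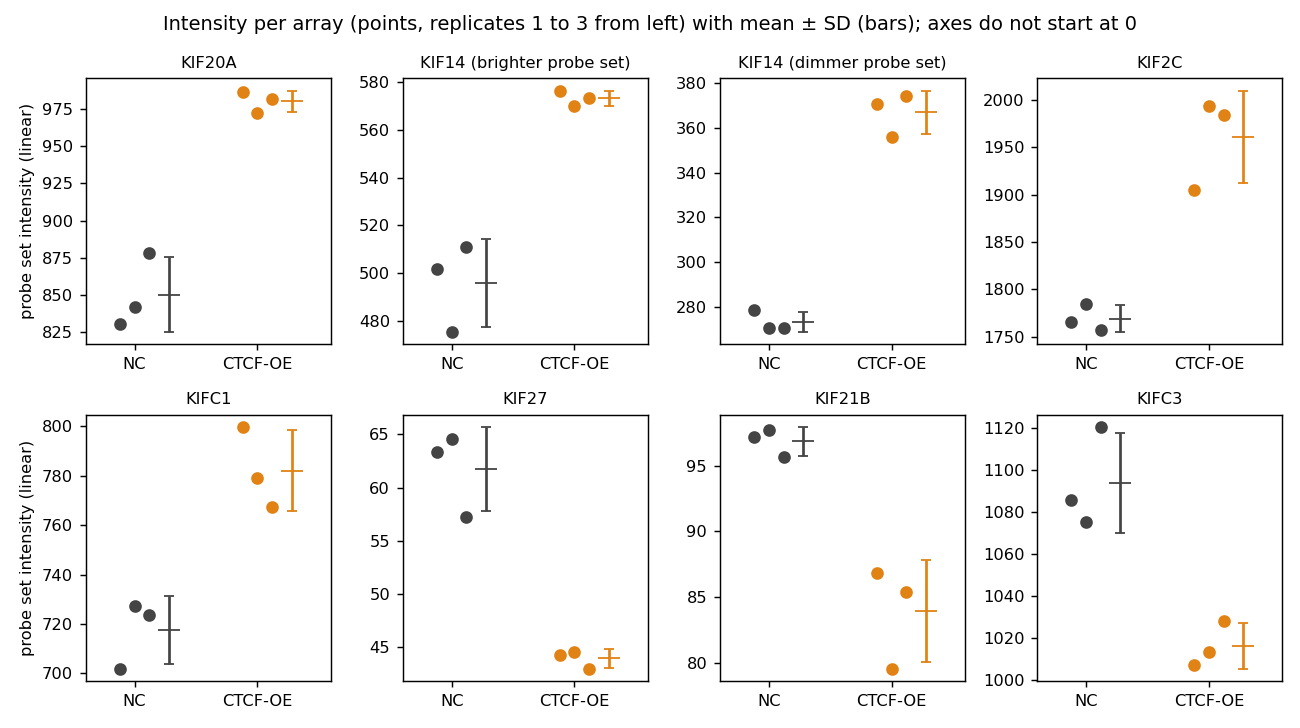
Intensity of named kinesins in each of the 6 arrays, on a linear axis, with each point 1 array. Bars beside the points give the group mean ± SD (n = 3). The KIF20A points lie between 830 and 879 in NC and between 972 and 987 under the CTCF-OE label, and the KIF27 points lie between 57.2 and 64.6 and between 42.9 and 44.5.

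KIF2C and KIFC1 came next in size among the mitotic kinesins. KIF2C (MCAK) shortens microtubule ends at centromeres and corrects faulty attachments. It measured 1766, 1785 and 1757 in NC and 1905, 1994 and 1985 under the CTCF-OE label, a log2 difference of 0.15 (SE 0.034, limma adjusted p = 0.0890). KIFC1 (HSET), a minus-end-directed motor that focuses spindle poles and gathers extra centrosomes, measured 702, 727 and 724 in NC. The values in the arrays labelled CTCF-OE were 800, 779 and 767, a log2 difference of 0.12 (SE 0.035, limma adjusted p = 0.141). Neither passed the threshold, although neither gene's groups overlapped. KIF11 (Eg5), which pushes spindle poles apart, was at 1214, 1209 and 1214 in NC and at 1251, 1267 and 1271 under the CTCF-OE label. That difference was small, 0.06 on the log2 scale (SE 0.031, limma adjusted p = 0.382), with groups that did not overlap.

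KIF23 (MKLP1), the motor of the centralspindlin complex, gave 704, 729 and 756 in NC and 774, 768 and 743 under the CTCF-OE label. Its groups overlapped (log2 difference 0.06, SE 0.040, limma adjusted p = 0.492). KIF18B, which limits astral microtubule length, gave 158, 163 and 146 against 149, 153 and 155. Its groups overlapped too (-0.03, SE 0.048, limma adjusted p = 0.812). The 4 KIF18B probe sets ran from -0.03 to 0.15 and so disagreed in direction. KIF2B, a relative of KIF2C, was dim with 10.7, 10.1 and 10.2 against 9.28, 11.4 and 10.8, with groups that overlapped. KIF2B was also the mitotic kinesin with the lowest percentile of brightness. The 6 mitotic kinesins not described singly (KIF4A, KIF15, KIF18A, KIF20B, KIF22 and KIF2A) had log2 differences of -0.06 to 0.10 with limma adjusted p of 0.202 or more, and KIF4A, KIF18A and KIF22 were higher without overlap.

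KIF27 fell, and it showed the largest change of the 41 genes. KIF27 is a vertebrate relative of the fly Hedgehog regulator Costal-2, and its mouse counterpart is known from motile cilia. The gene lies at chr9:83834099-83921432. Its intensity was 63.4, 64.6 and 57.2 in NC and 44.2, 44.5 and 42.9 under the CTCF-OE label. All 3 arrays labelled CTCF-OE were below all NC arrays, with means of 61.7 ± 3.96 and 43.9 ± 0.866 (SD, n = 3). The log2 difference was -0.48 (SE 0.052, 95% interval -0.61 to -0.36, limma adjusted p = 0.00987), and over all probe sets the adjusted p was 0.0114. The call was lost without NC replicate 1 (adjusted p 0.0520) and without CTCF-OE replicate 1, 2 or 3 (0.0598, 0.0583 and 0.0573, all limma). KIF27 has 1 probe set, of a type that by the maker's naming may read transcripts of more than 1 gene, and the annotation pairs it with KIF27 alone.

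KIF7, the other Costal-2 relative, sits at the tip of the primary cilium and regulates Hedgehog signalling. It measured 75.3, 84.7 and 88.5 in NC and 66.6, 68.6 and 76.2 under the CTCF-OE label. The groups overlapped, and the log2 difference of -0.23 had an SE of 0.075 (limma adjusted p = 0.194). KIF9, which in the mouse serves cilia and sperm flagella, was at 342, 370 and 356 against 369, 353 and 362 at its brightest probe set (0.02, limma adjusted p = 0.835). A dimmer KIF9 probe set gave 34.9, 36.5 and 38.7 against 30.4, 29.9 and 32.5, lower in all arrays labelled CTCF-OE without passing the threshold (-0.24, limma adjusted p = 0.0821). KIF24, a centriolar motor that restrains cilium formation, gave 152, 143 and 156 against 145, 150 and 136 (-0.07, limma adjusted p = 0.582). Its groups overlapped.

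KIF26A and KIF26B are atypical kinesins that bind microtubules with little motor activity. KIF26B gave 60.1, 53.7 and 58.6 in NC and 61.7, 49.1 and 45.3 under the CTCF-OE label (log2 difference -0.15, SE 0.112, limma adjusted p = 0.552), the largest SE of the 41 genes. KIF26A was dim as well with 7.33, 7.72 and 7.82 against 6.81, 7.16 and 6.96 (-0.11, limma adjusted p = 0.208). KIF25 was at 12.4, 11.1 and 13.5 against 12.5, 12.3 and 12.9. KIF26A, KIF25 and KIF2B were the 3 kinesins whose probe set was among the dimmest 20%. KIF12, KIF19 and KIF6 differed by -0.06 to 0.10 with limma adjusted p of 0.460 or more.

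At an unadjusted limma p under 0.05, 1 of 17 transport kinesins was higher and 2 were lower, beside 7.93% and 9.29% of all genes. No transport kinesin passed the threshold in either direction (0 of 17 by limma). KIF21B, a kinesin that tunes microtubule growth in neurons and T cells, came nearest. It measured 97.2, 97.7 and 95.6 in NC and 86.9, 79.5 and 85.4 under the CTCF-OE label. The groups did not overlap, and the log2 difference was -0.21 (SE 0.043, limma adjusted p = 0.0690), whereas its dimmer probe set gave 0.02 (limma adjusted p = 0.895). KIFC3, a minus-end-directed motor linked to adherens junctions, measured 1086, 1075 and 1120 in NC and 1007, 1013 and 1028 under the CTCF-OE label (-0.11, SE 0.034, limma adjusted p = 0.182). All 6 KIFC3 probe sets had differences below 0, from -0.16 to -0.06. KIFC2, described in mouse neurons, gave 143, 141 and 146 against 124, 137 and 136 (-0.11, SE 0.047, limma adjusted p = 0.293). In both KIFC genes the brightest probe set was lower in every array labelled CTCF-OE, and neither gene passed the threshold.

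Kinesin-1 heavy chains carry much of the cargo that moves to microtubule plus ends. KIF5B, the ubiquitous form, gave 2796, 2780 and 2765 in NC and 2978, 2912 and 2875 under the CTCF-OE label, without overlap (log2 difference 0.07, SE 0.032, limma adjusted p = 0.321). KIF5C, a neuronal form, was dim at 18.0, 18.8 and 19.1 against 21.8, 22.6 and 19.5 (0.18, SE 0.059, limma adjusted p = 0.186). Its 3 other probe sets had differences of -0.14 to -0.02, so its probe sets disagreed in direction. KIF3A, which with KIF3B forms the kinesin-2 motor of intraflagellar transport, gave 250, 239 and 271 against 279, 283 and 266 (0.13, SE 0.055, limma adjusted p = 0.309). Its groups overlapped. KIF17, the homodimeric kinesin-2, gave 38.3, 30.4 and 33.8 against 33.6, 35.5 and 36.5 (0.05, SE 0.082, limma adjusted p = 0.816), also with overlap. The remaining 10 transport kinesins had differences of -0.05 to 0.08 with limma adjusted p of 0.399 or more.

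Side by side, the mitotic class leaned to higher values and the transport class did not lean either way. Of the mitotic kinesins 11 of 14 had a difference above 0 (78.6%), and of the transport kinesins 9 of 17 (52.9%), beside 50.1% of all genes. The groups did not overlap in 8 mitotic kinesins higher and 0 lower, against 4 higher and 3 lower among the transport kinesins, beside 11.4% higher and 13.3% lower of all genes. The median log2 difference was 0.07 in the mitotic class (range -0.06 to 0.21), 0.02 in the transport class (-0.21 to 0.18) and -0.06 in the others (-0.48 to 0.10). The mitotic median exceeded the transport median by 0.05, and no test of the classes was made. Each array also gave a mitotic minus transport median of deviations from the gene means. Its pooled within-group SD over single arrays was 0.030, which is not an error of the 0.05. Leaving out NC replicate 1 brought the difference of the class medians to 0.02, and leaving out NC replicate 3 brought it to 0.10. Among kinesins above the median brightness of all genes the medians were 0.07 over 13 mitotic and 0.01 over 10 transport kinesins. The median within-group SD on the log2 scale was 0.037 for mitotic, 0.058 for transport and 0.085 for other kinesins, beside 0.065 for all genes.

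Within each array, the median deviation of the 14 mitotic kinesins from their means over 6 arrays was -0.05, -0.03 and -0.02 in NC and 0.01, 0.06 and 0.03 under the CTCF-OE label, so the groups were apart. The transport kinesins gave -0.01, 0.01 and -0.03 against 0.00, -0.00 and -0.00, and their groups overlapped. Such a separation was not confined to the mitotic class. The other kinesins were lower without overlap (0.02, 0.01 and 0.09 against 0.01, -0.02 and -0.05). Dynein and dynactin were higher without overlap (-0.03, -0.00 and -0.02 against 0.00, 0.02 and 0.00). Proliferation markers moved with the mitotic kinesins, at -0.04, -0.03 and -0.04 against 0.04, 0.03 and 0.03, and their part in the mitotic values was not tested.

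**Figure D4:**
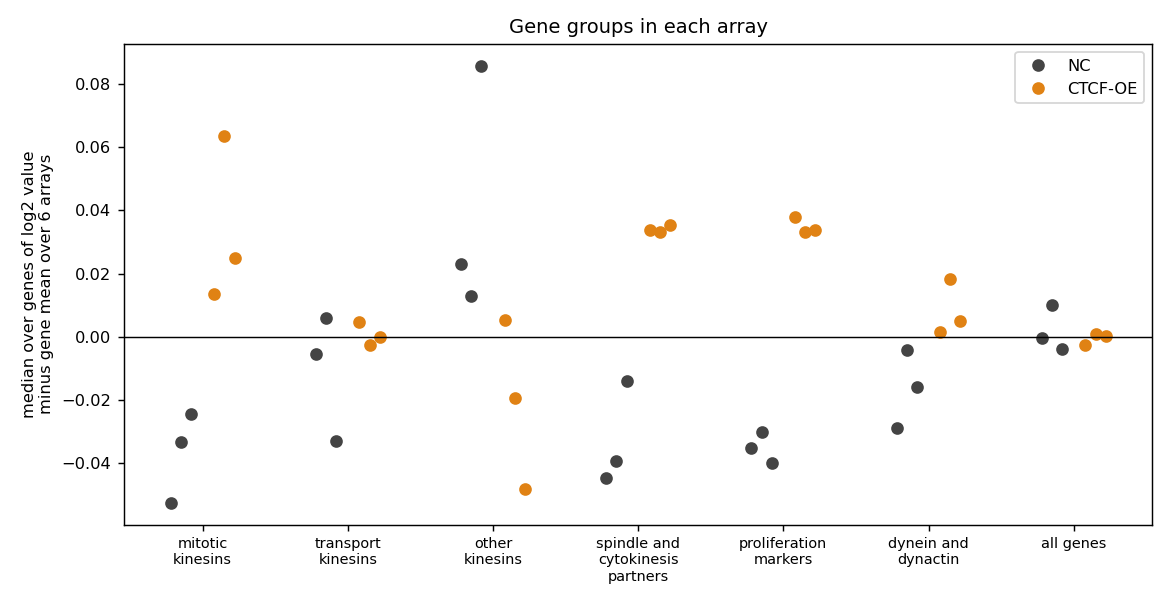
Median deviation, on the log2 scale, of the genes of each class or list from their own mean over the 6 arrays, with 1 point per array. The mitotic kinesins lie between -0.05 and -0.02 in NC and between 0.01 and 0.06 under the CTCF-OE label, and the transport kinesins overlap.

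The partners of both classes were counted from lists that, like the classes, were chosen with earlier results of these data known. Of 31 measured spindle and cytokinesis partners, 0 passed the limma threshold, with 11 higher and 0 lower at an unadjusted p under 0.05 and 19 higher and 0 lower without overlap. Over all genes the unadjusted shares were 7.93% higher and 9.29% lower, and those without overlap 11.4% and 13.3%. The median difference of the partners was 0.08. Of 14 proliferation markers, 2 rose, TOP2A (topoisomerase II alpha, 0.25, SE 0.032, limma adjusted p = 0.0165) and RRM2 (a ribonucleotide reductase subunit, 0.22, SE 0.035, limma adjusted p = 0.0340), and 0 fell, beside 0.734% of all genes called higher and 1.4% called lower. Of 19 cargo adaptors and kinesin light chains, which link kinesin-1 to cargo, 0 passed (0 higher and 1 lower at an unadjusted p under 0.05), with a median of -0.01. Of 25 subunits of dynein and dynactin, the motor that opposes kinesins, 0 passed by limma (3 higher and 1 lower unadjusted), with a median of 0.02. Of 18 tubulins, the track itself, 1 rose, TUBA1A (0.35, SE 0.041, limma adjusted p = 0.0127), and 0 fell (2 higher and 2 lower unadjusted). Of 19 cell cycle transcription factors, 0 passed by limma (2 higher and 1 lower unadjusted), with a median of 0.02.

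The 101 probe sets allowed each gene to be read more than once. Among the 26 mitotic probe sets 21 had a difference above 0, and 11 were higher and 1 lower without overlap, beside 11.6% and 12.8% of all probe sets. Among the 54 transport probe sets 27 were above 0, with 7 higher and 9 lower without overlap. Of 27 kinesins with several probe sets, all probe sets had the same sign in 14: 6 of 8 mitotic, 6 of 14 transport and 2 of 5 other kinesins. The spread between probe sets of a gene was widest in KIF1B, a carrier of mitochondria and synaptic vesicle precursors, where 6 probe sets ran from -0.11 to 0.28 and none passed the limma threshold. Probe sets of a gene share its transcripts and are not replicates.

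**Figure D5:**
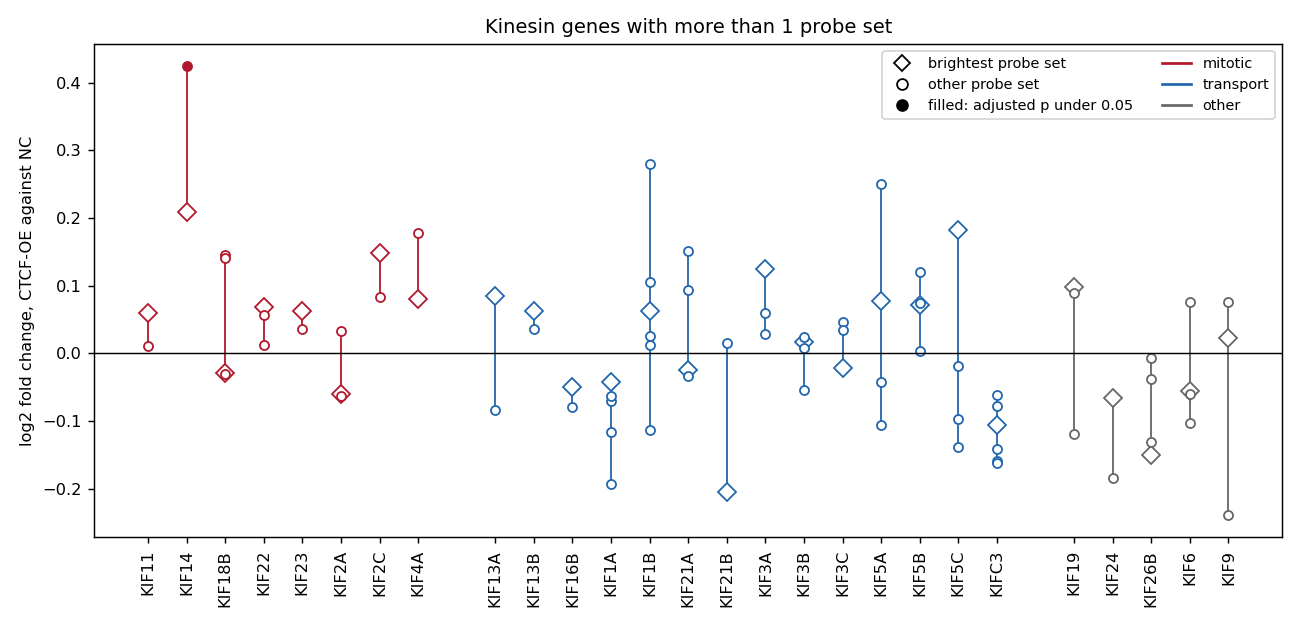
Log2 difference of every probe set of the kinesins with several probe sets, arrays labelled CTCF-OE minus NC, by gene. The KIF14 probe sets lie at 0.21 and 0.42, and the 6 KIF1B probe sets run from -0.11 to 0.28.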

How the data were processed

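Total RNA of the 6 samples was labelled as biotinylated cRNA and hybridised to PrimeView arrays by the authors. The authors deposited 1 linear intensity per probe set and array, with distributions already close to equal between arrays; the software, background correction and normalization are not given in the sources used here. Groups were taken from the sample titles, and no batch is given. Of the probe sets, 102 controls were set apart, 44988 had 1 gene symbol, 1832 had several and 2473 had none.

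Log2(intensity + 1) values entered a linear model per gene (limma 3.58.1, R 4.3.3, group as the only term, prior degrees of freedom 2.79 for genes and 2.97 for probe sets, Benjamini-Hochberg adjustment over all genes or all probe sets, threshold 0.05), so fold changes are on that scale and understate changes of dim genes. A gene was read by its single-symbol probe set with the highest mean. The number of arrays limits the precision. The 41 genes matched RefSeq by gene ID, with the same symbol. The procedure was tested on simulated data.

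Kinesins described singly were those past the threshold at gene or probe set level, the 4 largest differences, the 2 brightest and the 2 dimmest of each class, KIF14, KIF27, KIF11, KIF23, KIF5B and KIF3A; KIF1B was named after its values were seen. The members, classes and lists were chosen with earlier results of these data known. Alternatives covered the log offset, normalization, a filter on dim probe sets, the variance prior, the methods' t-test, the replicate number as a block, the mean over probe sets, each array left out, the fold threshold and class membership.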

Additional observations from a re-analysis of the deposited data

Results flagged for a closer look

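A probe set annotated to both KIF4A, a chromokinesin of the midzone, and its near-identical copy KIF4B was left out of the comparisons because it names 2 genes. It gave 690, 655 and 654 in NC and 786, 713 and 721 under the CTCF-OE label, with means of 666 ± 20.5 and 740 ± 40.3 (SD, n = 3). It was picked out as data that the report did not use. Every array labelled CTCF-OE was above every NC array, as in 11.6% of all probe sets. The log2 difference was 0.15 (SE 0.051, limma adjusted p = 0.207), which did not pass the threshold.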

How the results depend on the processing

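The mitotic median ran from 0.05 to 0.08 over the 15 alternatives. The intensity trend, the methods' t-test and the replicate block leave the differences unchanged and so could not move it. Counts of called kinesins changed. Against 1 higher, limma gave 3 with an offset of 16, 2 with quantile normalization, 2 with upper quartile scaling and 2 without the dimmest 20%. It gave 4 with an intensity trend and robust prior, 2 with the mean over probe sets and 0 to 0 with an array left out. The methods' t-test, to which Benjamini-Hochberg adjustment was added here, gave 0. Against 1 lower, the counts were 2 with the offset of 16, 2 without the dimmest 20%, 2 with the trend, 0 with the t-test and 0 to 1 with an array left out. With the fold threshold (1), they were 0 with the offset of 16, 0 with the t-test, 0 above 1.5-fold and 0 to 1 with an array left out. For probe sets (2), they were 7, 4, 4, 4 and 10 in the order above, 1 with the t-test and 1 to 2 with an array left out. For all genes (386), they were 830 with the offset of 16, 1442 with the trend, 622 with the mean over probe sets and 67 to 170 with an array left out.

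With the replicate number as a block, limma called 0 kinesins higher, 54 genes in all and 0 kinesin probe sets; KIF20A (adjusted p 0.143) and the dimmer KIF14 probe set (0.0560) lost their calls and KIF27 (0.0484) did not. For the pairing, each probe set's group mean was first subtracted from its log2 values. The deviations left in arrays with the same number correlated at 0.0120, 0.00542 and 0.00944, so they showed no pairing by number.

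CTCF passed the limma threshold as lower with the offset of 16 (-0.22), quantile normalization (-0.23), upper quartile scaling (-0.23), the dim filter (-0.23), the trend (-0.23) and the mean over probe sets (-0.23). The transport median was 0.00090 with the mean over probe sets and -0.012 to 0.040 with an array left out, with the sign turned to -0.012 without NC replicate 3. The mitotic minus transport difference was 0.015 (without NC replicate 1) to 0.096 (without NC replicate 3) with an array left out. Over the 22 genes described singly, and the dimmer KIF14 probe set, 306 of 342 values kept direction and side of the threshold, 14 lost their call, 12 gained it and 10 turned in sign: with the mean over probe sets KIF18B (0.057), KIF5C (-0.018) and KIF9 (-0.047), and with an array left out KIF9 (-0.0070 to 0.050), KIF17 (-0.030 to 0.132), KIF18B (-0.072 to 0.0041), KIF25 (-0.037 to 0.097) and KIF2B (-0.048 to 0.087). None of these had passed the threshold, and the causes were not tested.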
